A study of Mus musculus with 7 samples.

Results

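The genes of glycolysis and the pentose phosphate pathway were followed in Paneth cells (PCs), the granule-filled secretory cells of the small intestinal crypt base, after tumour necrosis factor (TNF) was injected into mice. The set was a written list of 37 mouse gene symbols, chosen by pathway and not by a cut-off on measured values. It was drawn up with earlier results of these data known. All 37 matched an Ensembl identifier among the 55414 rows of the count table. PCs of C57BL/6J mice had been purified by cell sorting 15 h after an injection of TNF or of phosphate-buffered saline (PBS), the control, and their RNA was sequenced as 3 PBS and 4 TNF libraries, each from its own mouse according to the series description. The comparison asks how the PC transcriptome differs after TNF. Both groups were of the same strain and were sorted in the same way, and the labels name no genetic change in either. The TNF dose, the sex and age of the mice and the sort antibodies were not given in the sources used here. Differences and p-values measure the spread between these mice.

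In glycolysis, glucose enters the cell through a carrier, is trapped by hexokinase, is committed to breakdown by phosphofructokinase and is split and oxidised to pyruvate, which either becomes lactate and leaves the cell or enters the mitochondrion. The pentose phosphate pathway branches off at glucose 6-phosphate and yields NADPH, which serves antioxidant defence and lipid synthesis, and ribose for nucleotides. Many glycolytic genes are textbook targets of the hypoxia-inducible factor HIF-1, and PCs are described in the crypt as glycolytic cells that pass lactate to the neighbouring stem cells.

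Levels are given as CPM, a gene's count for every 1000000 counts of its library, where library totals were first corrected with TMM, edgeR's trimmed-mean scaling. Total counts ran from 15511455 to 19193721 per library. A level written with ± is the mean with its standard deviation (SD) over 3 PBS or 4 TNF libraries. Changes are log2 fold changes of TNF against PBS with their standard error (SE) from edgeR's quasi-likelihood test, fitted over 14329 genes. A gene was called higher or lower when its Benjamini-Hochberg adjusted p over all those genes was under 0.05. Among all tested genes 59.6% were called, 29.5% as higher and 30.1% as lower, and the median log2 fold change was 0.0017. Scaling to total counts instead of TMM moved that median to -0.16, so small changes of members below depend on the scaling.

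The sorted cells carried the PC label in their transcripts. The summed level of 9 PC markers was 164771 to 265355 CPM in the PBS libraries and 159170 to 285529 CPM in the TNF libraries, and of the 9 genes 2 were called higher and 2 lower. Transcripts of other epithelial cells were present and moved with the treatment. The sum of 10 enterocyte markers was 570 to 705 CPM after PBS and 128 to 163 CPM after TNF, and of the 8 tested 6 were called lower and 1, Slc5a1, higher. The 8 tuft cell markers summed to 1260 to 2073 CPM and 232 to 587 CPM, the 7 stem cell markers to 3814 to 5135 CPM and 2033 to 2776 CPM, and the 7 goblet cell markers to 11164 to 20532 CPM and 9157 to 10474 CPM. Lower calls numbered 8 of 8 in the tuft, 6 of 7 in the stem and 4 of 7 in the goblet cell list. Among the goblet cell markers Muc2 was not called, at 5361 ± 1793 CPM and 5864 ± 318 CPM, whereas Fcgbp was lower, at 2888 ± 1373 CPM and 58.8 ± 18.8 CPM (edgeR adjusted p = 7.68e-07). The 8 enteroendocrine cell markers summed to 29.9 to 99.5 CPM and 23.4 to 32.5 CPM with 3 lower calls, and the 7 proliferation markers to 505 to 543 CPM and 295 to 376 CPM with 4 lower and 2 higher calls. The 9 leukocyte markers summed to 13.3 to 28.2 CPM after PBS and 17.5 to 19.9 CPM after TNF, with Cd3e and Csf3r among those at 0 in every library. Within that sum Ptprc, the pan-leukocyte marker CD45, was at 16.4 ± 8.51 CPM and 8.49 ± 2.89 CPM with overlap (edgeR adjusted p = 0.027), and its call was lost in 5 of 15 alternatives, among them leaving out PBS replicate 2, the highest library, which gave a log2 fold change of -0.43 beside -0.95. S100a9, a calprotectin subunit abundant in neutrophils, had no count in any PBS library and 5.76, 6.83, 3.21 and 7.84 CPM in the TNF libraries, and was called higher (edgeR adjusted p = 1.14e-06). Stromal and endothelial markers reached at most 0.503 CPM and erythroid markers at most 0.236 CPM in any library. PBS replicate 2 stood apart in some enterocyte transcripts, with 22.1 CPM of Apoa1 and 10.2 CPM of Lct against at most 2.38 CPM and 0.900 CPM in the other libraries. The part of these other cells in the results below was not tested, and in bulk samples fewer cells of a type cannot be told apart from less RNA per cell.

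Of the 37 genes, 36 had enough counts to be tested, and 21 were called higher, 4 lower and 11 neither way after TNF. The median log2 fold change over the 36 genes was 0.60, beside 0.0017 over all tested genes. The higher calls, 21 of 36 genes, stand beside 29.5% of all genes, and the lower calls, 4 of 36, beside 30.1%. In 24 of the 36 genes the lowest and highest libraries of the groups did not overlap, against 60.7% of all genes. At least 2-fold higher calls numbered 14, with 14.4% of all genes in that class, and at least 2-fold lower calls numbered 2, with 17.2% of all genes. These shares only describe the set, since it was chosen with earlier results of these data known. The summed level of the members was 2473, 2538 and 2253 CPM in PBS replicates 1 to 3 and 4830, 5549, 5397 and 5309 CPM in TNF replicates 1 to 4. The sum was thus higher in every TNF library than in any PBS library. Hk2, Pfkfb3 and Hif1a weighed heavily in it, with means of 93.2, 58.6 and 60.7 CPM after PBS. After TNF these 3 genes were at 940, 514 and 465 CPM. The genes of pyruvate entry, within the same sum, went down, from 410 to 454 CPM after PBS to 326 to 354 CPM after TNF. The untested gene was Ldhb, which encodes the H subunit of lactate dehydrogenase and had 30 counts in the 3 PBS libraries together and 10 counts in the 4 TNF libraries.

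**Figure D1:**
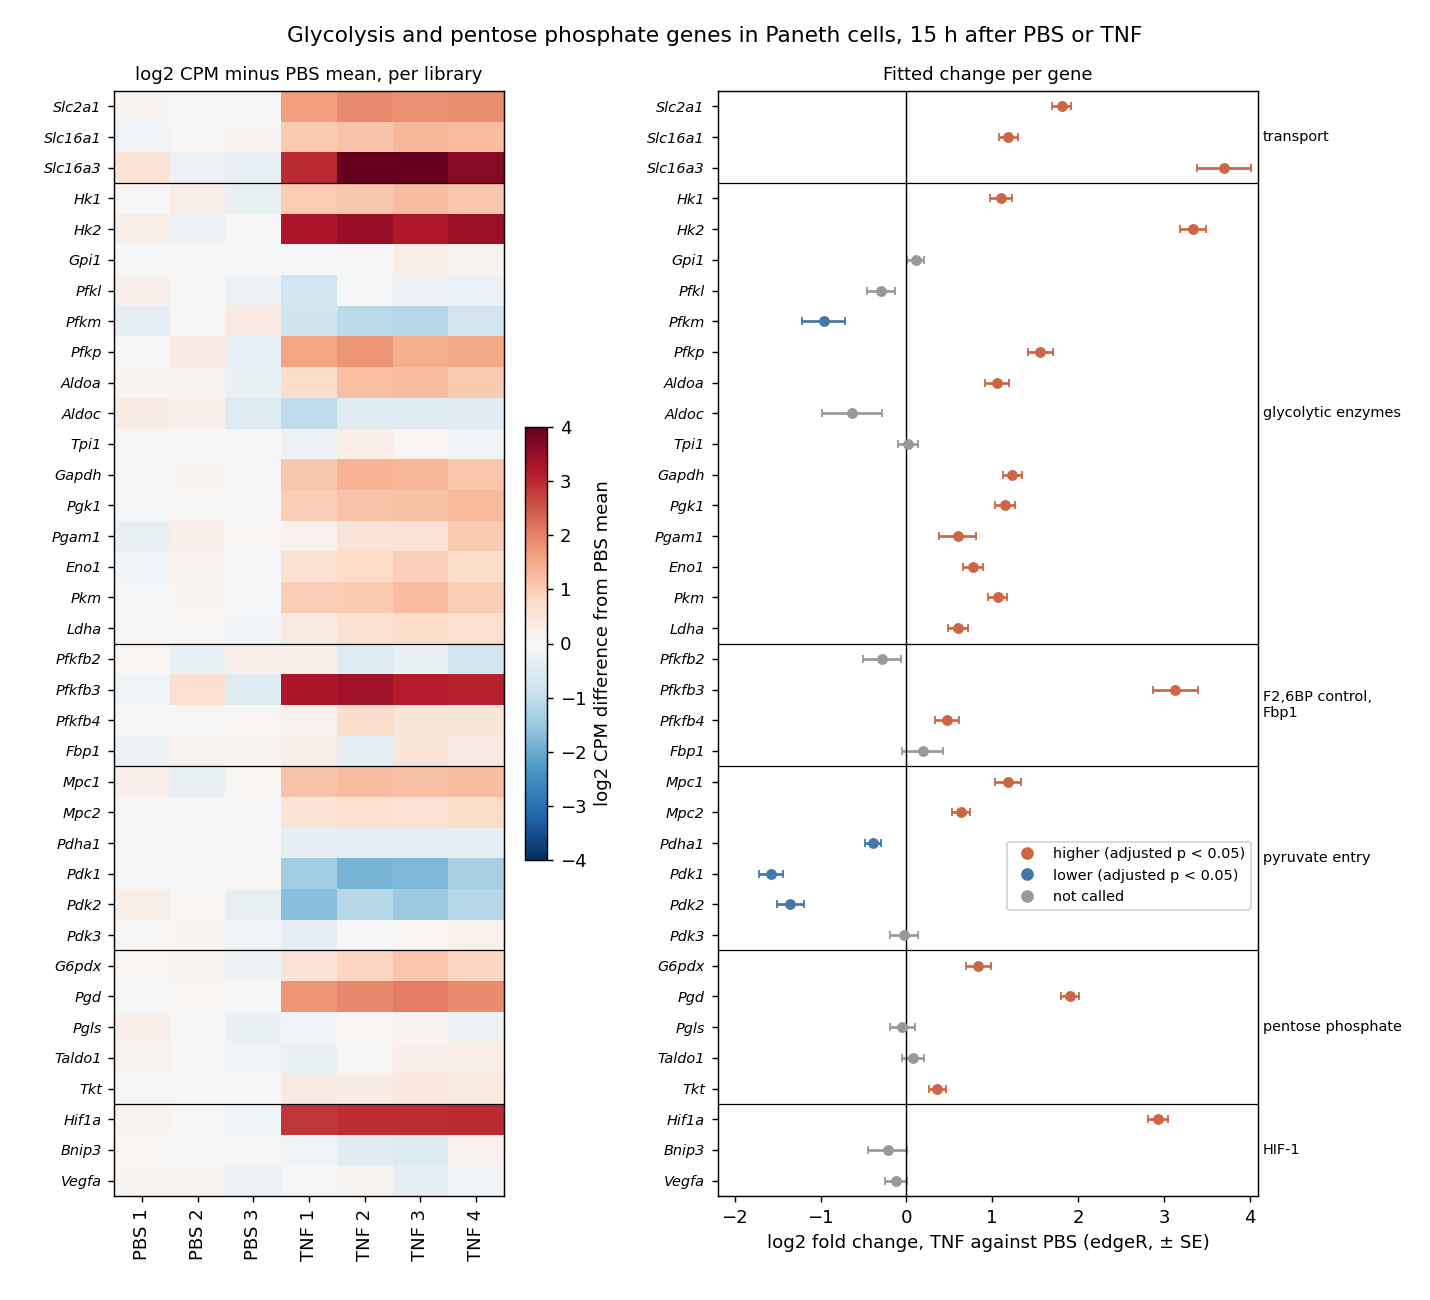
Left, the log2 CPM of 36 tested genes in each library minus the mean of the PBS libraries, with colours limited to -4 and 4. Right, the fitted log2 fold change of TNF against PBS with its standard error, for 3 PBS and 4 TNF libraries; the longest shifts to the right are those of Slc16a3, Hk2, Pfkfb3 and Hif1a, and the longest to the left are those of Pdk1 and Pdk2.

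The 4 members with the largest fitted changes among those averaging at least 10 CPM were Slc16a3, Hk2, Pfkfb3 and Hif1a. The 250 bases before the transcription start of each are shown because HIF-1 is known to bind the core letters ACGTG or GCGTG in promoters of glycolytic genes. They come from RefSeq on GRCm38.p6, run 5′ to 3′ on the strand of the gene, and carry every ACGTG or GCGTG core of either strand in capitals, where CACGT and CACGC are the cores read from the other strand.
Slc16a3, chr11:120948817-120949066, plus strand: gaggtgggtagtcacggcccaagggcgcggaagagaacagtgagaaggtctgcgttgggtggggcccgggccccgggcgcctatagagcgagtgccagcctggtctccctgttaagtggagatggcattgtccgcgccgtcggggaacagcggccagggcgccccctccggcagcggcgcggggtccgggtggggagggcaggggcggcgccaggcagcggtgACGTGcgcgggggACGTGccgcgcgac
Hk2, chr6:82774455-82774704, minus strand: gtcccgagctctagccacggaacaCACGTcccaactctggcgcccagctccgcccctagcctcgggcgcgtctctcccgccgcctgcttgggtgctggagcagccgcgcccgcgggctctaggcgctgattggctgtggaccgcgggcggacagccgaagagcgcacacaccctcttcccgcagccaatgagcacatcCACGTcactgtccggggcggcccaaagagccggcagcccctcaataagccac
Pfkfb3, chr2:11553930-11554179, minus strand, 1 of 2 listed starts: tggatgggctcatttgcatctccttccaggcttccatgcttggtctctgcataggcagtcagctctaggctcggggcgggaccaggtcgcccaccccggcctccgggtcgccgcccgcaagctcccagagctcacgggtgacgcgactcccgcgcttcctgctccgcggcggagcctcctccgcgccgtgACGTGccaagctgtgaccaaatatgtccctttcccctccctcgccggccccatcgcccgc
Hif1a, chr12:73907617-73907866, plus strand: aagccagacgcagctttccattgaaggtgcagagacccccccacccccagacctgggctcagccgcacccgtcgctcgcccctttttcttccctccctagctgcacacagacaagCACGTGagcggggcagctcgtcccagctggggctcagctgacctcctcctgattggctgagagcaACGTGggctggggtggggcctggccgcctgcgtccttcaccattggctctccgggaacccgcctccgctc
These windows held 2 cores in Slc16a3, 2 in Hk2, 1 in Pfkfb3 and 3 in Hif1a, the last including a CACGTG palindrome that was counted on both strands. For shares over promoters the window was longer than the one printed and ran from 250 bases before to 50 after each start. Over all 37 genes RefSeq listed 56 promoters, of which 78.6% held ACGTG or GCGTG on either strand, against 43.8% of all 32851 listed mouse promoters. ACGTG alone was in 44.6% and 19.6%, GCGTG in 58.9% and 32.4%, and the palindrome CACGTG, which contains ACGTG, in 14.3% and 7.15%. The antioxidant response letters TGACNNNGC, known from the factor NRF2, were in 12.5% and 12.4%, and the NF-kB consensus was in 12.5% and 8.46%. The promoters of the members were richer in G and C, with a median of 61.7% against 52.7%, and all of these motifs contain both letters. An ACGTG or GCGTG core was in at least 1 listed promoter of 34 of the 37 genes. Among these were Pfkm, Pdha1, Pdk1 and Pdk2, all called lower, and Bnip3, Pdk3 and Vegfa, which were not called. The printed start of Pfkfb3 was the first listed, and its other start held 4 cores in the longer window. A match is a stretch of letters, and binding was not measured.

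Transport was higher for all 3 members. Slc2a1 (ENSMUSG00000028645, GRCm39 chromosome 4, 118965908 to 118996365) encodes GLUT1, a carrier for glucose uptake. In PBS replicates 1 to 3 Slc2a1 had 32.8, 29.1 and 29.2 CPM, and in TNF replicates 1 to 4 it had 94.8, 113, 109 and 109 CPM. Every TNF library lay above every PBS library, at about 3.5-fold (log2 fold change 1.81 ± 0.11, SE, edgeR adjusted p = 1.19e-08). Slc16a1 encodes MCT1, a proton-linked carrier of lactate and pyruvate. For Slc16a1 the values were 46.1, 51.7 and 54 CPM after PBS and 105, 111, 126 and 119 CPM after TNF. These groups did not overlap either (log2 fold change 1.19 ± 0.11, SE, edgeR adjusted p = 5.20e-07). Slc16a3 (ENSMUSG00000025161, chromosome 11, 120838846 to 120851694) encodes MCT4, the carrier known for lactate export from glycolytic cells. Slc16a3 was at 2.72, 1.58 and 1.48 CPM in PBS replicates 1 to 3 and at 14.6, 29.2, 32.2 and 22.9 CPM in TNF replicates 1 to 4. It was the largest change among the members, 13-fold (log2 fold change 3.70 ± 0.31, SE, edgeR adjusted p = 6.30e-07), and the log2 fold change stayed between 3.53 and 4.01 when each library was left out in turn. TNF replicate 1 was the lowest of its group and still more than 5 times the highest PBS library.

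Slc16a3 stayed below Slc16a1 per length of transcript. In CPM per kilobase of the canonical transcript, a scale on which genes can be compared, it stood at 0.41 ± 0.146 after PBS and 5.26 ± 1.65 after TNF beside 11 ± 0.885 after PBS and 25 ± 1.99 after TNF for Slc16a1. The count ratio of Slc16a3 to Slc16a1 within a library was 0.0590, 0.0305 and 0.0275 in the PBS libraries and 0.139, 0.264, 0.255 and 0.193 in the TNF libraries, without overlap (exact permutation p = 0.0286, two-sided and the smallest that 35 splits allow; 0.0409 after adjustment over 10 ratios). Exons of Csnk1d, a kinase gene on the opposite strand, cover 40.1% of the exon bases of Slc16a3. Csnk1d had 158 ± 11 CPM after PBS and 179.6 ± 3.86 CPM after TNF (SD, n = 3 and n = 4; log2 fold change 0.18 ± 0.10, SE, edgeR adjusted p = 0.115). The use of strand in the counting is not known, so some of the counts of each gene could belong to the other. Opposite-strand neighbours cover at least 10% of the exon bases in 10 of the 37 genes.

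Of 13 other carriers of sugars and monocarboxylates, 9 were tested, 3 were called higher and 4 lower. Slc2a5, the fructose carrier, was at 22.5 ± 5 CPM after PBS and 6.16 ± 1.22 CPM after TNF (log2 fold change -1.87 ± 0.20, SE, edgeR adjusted p = 2.60e-06). Slc16a7, which encodes MCT2, was at 94.9 ± 5.78 CPM after PBS and 32.7 ± 3.18 CPM after TNF (log2 fold change -1.54 ± 0.11, SE, edgeR adjusted p = 4.68e-08). Slc5a1, the sodium-coupled glucose carrier that is also in the enterocyte list, was chosen after its values were seen and was called higher, at 38.7 ± 6.35 CPM after PBS and 53.5 ± 5.25 CPM after TNF (log2 fold change 0.46 ± 0.13, SE, edgeR adjusted p = 0.00714), a call lost when libraries were scaled to total counts (0.28). The log2 fold change of Slc2a5 was between -2.05 and -1.73 when each library was left out in turn. The part of enterocytes, or of other cells whose markers were lower, in its fall was not tested.

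The glycolytic enzymes were 16 of the members. Of the 15 tested, 10 were called higher, 1 lower and 4 neither way, with a median log2 fold change of 0.78. The higher ones sat at most steps of the pathway, whereas Gpi1 and Tpi1 were not called.

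Hexokinase traps glucose as glucose 6-phosphate. Hk2 (ENSMUSG00000000628, chromosome 6, 82699740 to 82751469) encodes the inducible isoform. The PBS libraries held 109, 78.5 and 92.6 CPM of Hk2 and the TNF libraries 874, 1033, 857 and 998 CPM. The lowest TNF library was more than 7 times the highest PBS library, and the change was 10.1-fold (log2 fold change 3.34 ± 0.15, SE, edgeR adjusted p = 7.98e-10). Its log2 fold change stayed between 3.23 and 3.46 when each library was left out in turn. Hk1, the isoform most tissues share, was higher by less. In replicate order, Hk1 had 48.2, 55.6 and 37.9 CPM after PBS and 94.3, 99.4, 110.1 and 102 CPM after TNF. Its groups did not overlap (log2 fold change 1.10 ± 0.13, SE, edgeR adjusted p = 5.91e-06). Per kilobase of transcript the isoforms were at a like level after PBS, 11 ± 2.08 for Hk1 and 12 ± 1.93 for Hk2, and their PBS ranges overlapped. After TNF they stood at 23.7 ± 1.54 and 121 ± 11.3. Within libraries, the count ratio of Hk2 to Hk1 was 2.04 ± 0.549 after PBS and 9.32 ± 1.12 after TNF (exact permutation p = 0.0286, adjusted 0.0409).

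Phosphofructokinase makes the committed step and is built from 3 kinds of subunit, whose calls differed. Pfkp encodes the platelet type. Levels of Pfkp were 35.3, 44.9 and 28.6 CPM in the PBS mice and 106, 121, 98.1 and 103 CPM in the TNF mice. All TNF libraries were above all PBS libraries (log2 fold change 1.56 ± 0.15, SE, edgeR adjusted p = 7.22e-07). Pfkm, the muscle type, was the least abundant of them per length and the only one of the 15 tested enzymes called lower. In PBS replicates 1 to 3 Pfkm had 5.56, 7.58 and 9.11 CPM, and in TNF replicates 1 to 4 it had 4.19, 3.47, 3.32 and 4.25 CPM. The groups did not overlap (log2 fold change -0.96 ± 0.25, SE, edgeR adjusted p = 0.00404). Pfkl, the liver type, was not called. For Pfkl the values were 40.9, 36.5 and 30.5 CPM after PBS and 20.8, 34.9, 30.7 and 30.6 CPM after TNF. Its groups overlapped (log2 fold change -0.30 ± 0.16, SE, edgeR adjusted p = 0.135, 95% interval -0.65 to 0.06), and it was called lower when libraries were scaled to total counts, at a log2 fold change of -0.46. In CPM per kilobase, Pfkl and Pfkp were level after PBS, at 8.77 ± 1.28 and 8.42 ± 1.9, and Pfkm was at 1.85 ± 0.446. After TNF the order was Pfkp at 24.8 ± 2.31, Pfkl at 7.13 ± 1.45 and Pfkm at 0.953 ± 0.121, with no overlap between neighbours. Within libraries, the count ratio of Pfkp to Pfkl went from 1.01 ± 0.193 to 3.78 ± 0.879 (exact permutation p = 0.0286, adjusted 0.0409), and that of Pfkm to Pfkl from 0.214 ± 0.0818 to 0.137 ± 0.0462, which overlapped (exact permutation p = 0.171, adjusted 0.190).

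**Figure D2:**
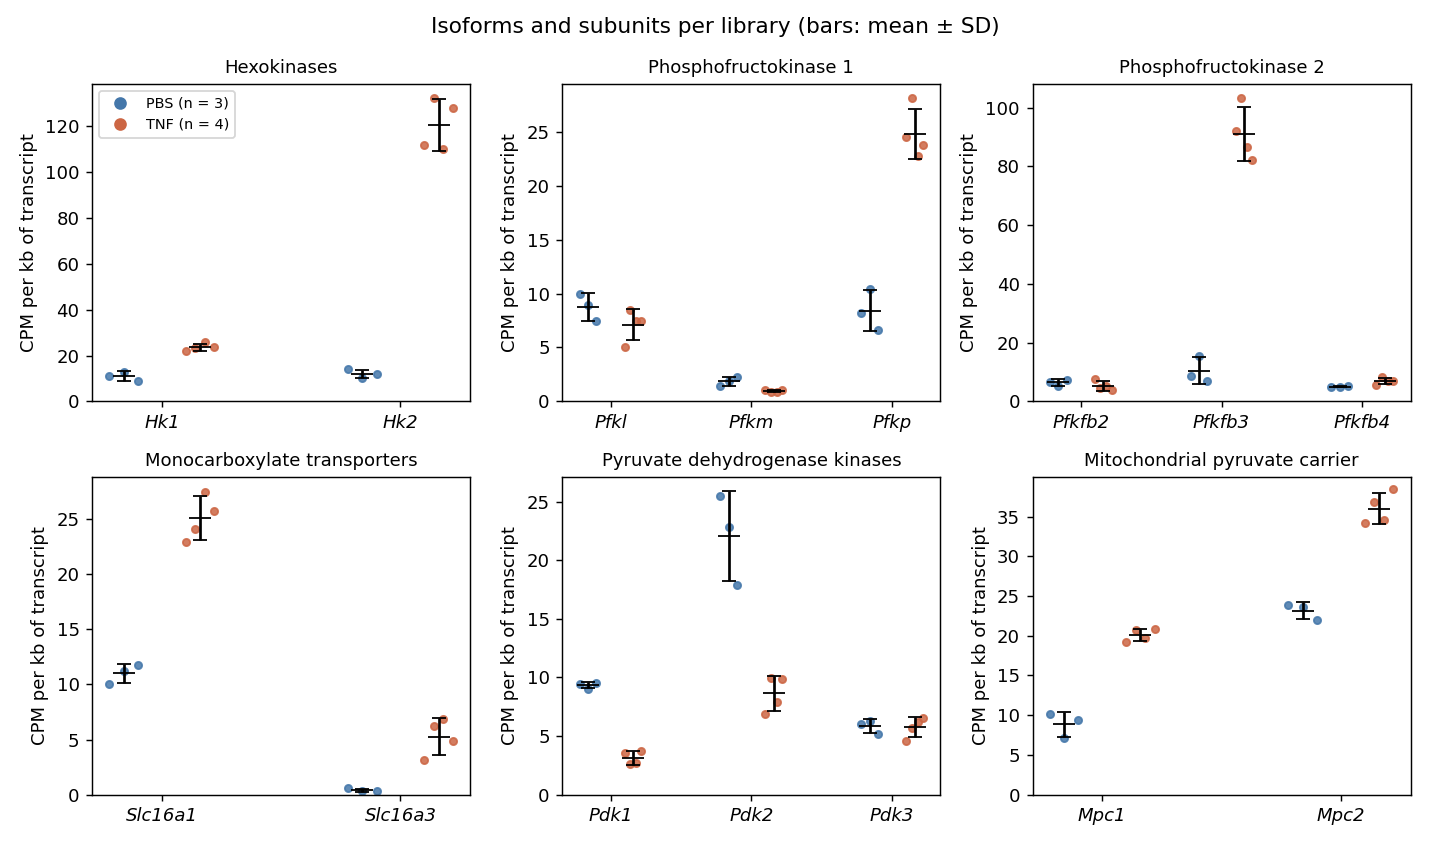
CPM per kilobase of canonical transcript in each library for isoforms or subunits of 6 steps, with the mean and SD of 3 PBS and 4 TNF libraries on linear axes. Hk2, Pfkp, Pfkfb3 and Slc16a3 after TNF sit above all their PBS libraries, while Pdk1 and Pdk2 sit below theirs.

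Aldoa, the main aldolase of most tissues, splits the sugar into trioses. Aldoa was at 219, 225 and 171 CPM in PBS replicates 1 to 3 and at 340.2, 469, 479 and 416 CPM in TNF replicates 1 to 4. The TNF libraries were all higher (log2 fold change 1.06 ± 0.14, SE, edgeR adjusted p = 2.41e-05). Aldoc, the brain-type aldolase, was scarce, at 2.22 to 3.95 CPM in the PBS libraries and 1.57 to 2.35 CPM in the TNF libraries, with overlap (log2 fold change -0.64 ± 0.35, SE, edgeR adjusted p = 0.132, 95% interval -1.39 to 0.11). Relative to Aldoa, the count of Aldoc fell from 0.0159 ± 0.00259 to 0.00496 ± 0.000481 (exact permutation p = 0.0286, adjusted 0.0409). Gpi1, which makes fructose 6-phosphate, was at 111 to 121 CPM after PBS and 115 to 136 CPM after TNF and was not called (log2 fold change 0.11 ± 0.10, SE, edgeR adjusted p = 0.373, 95% interval -0.11 to 0.32). Tpi1, which interconverts the trioses, was at 128 to 133 CPM and 114 to 158 CPM and was not called (log2 fold change 0.02 ± 0.12, SE, edgeR adjusted p = 0.916, 95% interval -0.24 to 0.27). The upper bounds of these intervals, 0.32 for Gpi1 and 0.27 for Tpi1, lie below the changes fitted for the enzymes called higher. The 95% interval of Pgam1, one of those enzymes, is 0.14 to 1.06 and overlaps both intervals.

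The steps from glyceraldehyde 3-phosphate to pyruvate were called higher throughout. Gapdh encodes the dehydrogenase that is a common reference gene. The PBS libraries held 80.1, 87.8 and 78.3 CPM of Gapdh and the TNF libraries 173, 217, 204 and 179 CPM. Every TNF library was at more than 2 times the PBS mean (log2 fold change 1.24 ± 0.11, SE, edgeR adjusted p = 5.69e-07). Pgk1 makes ATP from 1,3-bisphosphoglycerate. It was at 24.3 ± 1.05 CPM after PBS and 54 ± 4.81 CPM after TNF (log2 fold change 1.15 ± 0.11, SE, edgeR adjusted p = 1.23e-06). Eno1, the enolase of most tissues, was at 54.2 ± 4.7 CPM after PBS and 92.9 ± 9.31 CPM after TNF (log2 fold change 0.78 ± 0.11, SE, edgeR adjusted p = 4.01e-05). Pkm, the pyruvate kinase gene of most tissues outside liver, forms pyruvate. In replicate order, Pkm had 119.6, 137 and 121 CPM after PBS and 249, 257, 296 and 249.8 CPM after TNF. The groups of Gapdh, Pgk1, Eno1 and Pkm did not overlap.

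Pgam1, the phosphoglycerate mutase, had the weakest call of this run. Levels of Pgam1 were 7.66, 10.9 and 10.1 CPM in the PBS mice and 10.7, 13.4, 14.2 and 19.7 CPM in the TNF mice. PBS replicate 2 lay above TNF replicate 1, so the groups overlapped (log2 fold change 0.60 ± 0.21, SE, edgeR adjusted p = 0.027). The call was lost without PBS replicate 1 (log2 fold change 0.47), without TNF replicate 3 (0.59), without TNF replicate 4 (0.40) and with total counts (0.39). Of all windows of 75 bases in the annotated isoforms of Pgk1, 49.6% also occur in a processed pseudogene, so reads from them could be assigned to a copy or lost. For Gapdh, 38.8% of the windows occur in some other gene, with 33.7% in Iffo1, an overlapping gene on the opposite strand that had 64 counts over the 7 libraries, and 13.2% in the pseudogene Gm7336, which had none. With the counts of the pseudogene copies added, Gapdh had a log2 fold change of 1.15 ± 0.11 (SE) and Pgk1 of 1.15 ± 0.11 (SE).

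Ldha encodes the M subunit of lactate dehydrogenase, which turns pyruvate into lactate. In PBS replicates 1 to 3 Ldha had 230.4, 230.5 and 203 CPM, and in TNF replicates 1 to 4 it had 284, 338, 369 and 350.3 CPM. Every TNF library was above every PBS library, by 1.52-fold on the fitted scale (log2 fold change 0.60 ± 0.12, SE, edgeR adjusted p = 5.10e-04). In CPM per kilobase the highest members after PBS were Ldha at 139 ± 9.87, Aldoa at 136 ± 19.6 and Taldo1, described below, at 126 ± 12.5, and the ranges of the 3 genes overlapped. After TNF the levels were 282 ± 42.1 for Aldoa, 211 ± 23 for Ldha and 132 ± 20.7 for Taldo1, with overlap between Aldoa and Ldha and none between Ldha and Taldo1. Gapdh was then at 136 ± 14.5, with a mean slightly above that of Taldo1. The count ratio of the scarce Ldhb to Ldha was 0.00238 ± 0.00147 and 0.000458 ± 0.000539, which did not pass (exact permutation p = 0.114, adjusted 0.143).

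Among 23 other genes of glycolysis and gluconeogenesis, mostly tissue-restricted isoforms, 15 were tested, 4 were called higher and 6 lower, with a median log2 fold change of 0.18. Pck1, the committed enzyme of gluconeogenesis, was at 35.2 ± 8.34 CPM after PBS and 10.7 ± 0.435 CPM after TNF (log2 fold change -1.72 ± 0.16, SE, edgeR adjusted p = 6.25e-07). Pcx, pyruvate carboxylase, was at 19.2 ± 3.29 CPM after PBS and 5.44 ± 1.2 CPM after TNF (log2 fold change -1.82 ± 0.20, SE, edgeR adjusted p = 3.74e-06). Pgam5, a mitochondrial phosphatase named after the mutase family, was at 22 ± 2.47 CPM after PBS and 49.2 ± 3.42 CPM after TNF (log2 fold change 1.16 ± 0.12, SE, edgeR adjusted p = 1.85e-06). The call of Pck1 was unchanged without PBS replicate 2 or any other single library. Many markers of enterocytes and of tuft, stem and goblet cells were called lower as well, as were 30.1% of all genes. The part of these cells in the fall of Pck1 was not tested. Pklr, the liver-type pyruvate kinase, was named after its values were seen and was at 88.6 ± 8.44 CPM after PBS and 43.5 ± 8.13 CPM after TNF (log2 fold change -1.02 ± 0.14, SE, edgeR adjusted p = 2.44e-05).

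Fructose 2,6-bisphosphate is the signal molecule that switches phosphofructokinase on, and the Pfkfb genes encode the enzymes that make and remove it. Pfkfb3 (ENSMUSG00000026773, chromosome 2, 11476244 to 11558888) encodes the form with the strongest kinase side and is known as an inducible gene. For Pfkfb3 the values were 49.4, 87.8 and 38.7 CPM after PBS and 519.8, 583, 489 and 464 CPM after TNF. Every TNF library exceeded 5 times the highest PBS library (log2 fold change 3.13 ± 0.26, SE, edgeR adjusted p = 2.59e-06). PBS replicate 2 was the highest of its group, and without it the log2 fold change was 3.55, the top of a leave-one-out range that began at 2.90. Pfkfb4 was higher by less. Pfkfb4 was at 17, 17.2 and 18.3 CPM in PBS replicates 1 to 3 and at 19.5, 28.7, 24.4 and 24.6 CPM in TNF replicates 1 to 4. Its groups did not overlap (log2 fold change 0.47 ± 0.15, SE, edgeR adjusted p = 0.012), and the call was lost when libraries were scaled to total counts (log2 fold change 0.29). Pfkfb2, the heart-type form, was not called. The PBS libraries held 20.7, 16.2 and 22.5 CPM of Pfkfb2 and the TNF libraries 23.4, 13.6, 16.4 and 11.5 CPM. The groups overlapped (log2 fold change -0.28 ± 0.22, SE, edgeR adjusted p = 0.277, 95% interval -0.75 to 0.18), and without TNF replicate 1 the gene was called lower at -0.52 (edgeR adjusted p = 0.0192). Yod1, on the opposite strand, covers 16% of the exon bases of Pfkfb2 and was higher, at 21.9 ± 1.2 CPM after PBS and 54.3 ± 2.14 CPM after TNF (log2 fold change 1.31 ± 0.11, SE, edgeR adjusted p = 1.97e-07), and its part in the counts of Pfkfb2 was not tested. Pfkfb3 led the family in CPM per kilobase after TNF, at 91 ± 9.07 beside 6.97 ± 1.09 for Pfkfb4 and 5.3 ± 1.69 for Pfkfb2, and the latter pair overlapped. After PBS the forms stood at 10.4 ± 4.57, 5.02 ± 0.208 and 6.47 ± 1.05, and the ranges of Pfkfb3 and Pfkfb2 overlapped. Relative to Pfkfb2, the count of Pfkfb3 rose from 3.17 ± 1.97 to 33.8 ± 9.55 (exact permutation p = 0.0286, adjusted 0.0409).

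Fbp1, the phosphatase that runs this step backwards in gluconeogenesis, was scarce, at 5.56 to 7.12 CPM after PBS and 5 to 9.04 CPM after TNF, and was not called (log2 fold change 0.19 ± 0.24, SE, edgeR adjusted p = 0.507, 95% interval -0.32 to 0.70). Fbp2, the related gene for this phosphatase, was named after its values were seen and was more abundant. It was at 81.1 ± 12.6 CPM after PBS and 96.9 ± 5.05 CPM after TNF, with overlap, and was not called (log2 fold change 0.26 ± 0.11, SE, edgeR adjusted p = 0.0645). Tigar, a phosphatase that lowers fructose 2,6-bisphosphate and is known to send sugar towards the pentose phosphate pathway, was named after its values were seen and was at 4.11 ± 0.484 CPM after PBS and 11.5 ± 0.93 CPM after TNF (log2 fold change 1.48 ± 0.19, SE, edgeR adjusted p = 1.75e-05).

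Pyruvate reaches the mitochondrial matrix through a carrier of the subunits MPC1 and MPC2 and is burnt by pyruvate dehydrogenase, which the Pdk kinases switch off. Of these 6 members 2 were called higher and 3 lower, with a median log2 fold change of -0.21. Both carrier subunits rose. In replicate order, Mpc1 had 11.5, 8.03 and 10.5 CPM after PBS and 21.6, 23.3, 22.3 and 23.5 CPM after TNF. Levels of Mpc2 were 33.2, 32.8 and 30.5 CPM in the PBS mice and 47.5, 51.2, 48.1 and 53.4 CPM in the TNF mice. Neither gene had overlapping groups (Mpc1 log2 fold change 1.18 ± 0.15, SE, edgeR adjusted p = 1.65e-05 and Mpc2 log2 fold change 0.64 ± 0.10, SE, edgeR adjusted p = 1.26e-04). As a ratio of counts, Mpc2 to Mpc1 was 3.29 ± 0.692 after PBS and 2.20 ± 0.0474 after TNF (exact permutation p = 0.0286, adjusted 0.0409).

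Pdk1, one of the kinases and a known HIF-1 target, fell. In PBS replicates 1 to 3 Pdk1 had 49.9, 47.5 and 50.4 CPM, and in TNF replicates 1 to 4 it had 18.6, 13.7, 14.2 and 19.5 CPM. The highest TNF library was below the lowest PBS library (log2 fold change -1.58 ± 0.14, SE, edgeR adjusted p = 4.10e-07). Pdk2, another kinase of the family, fell too. For Pdk2 the values were 58.8, 52.7 and 41.3 CPM after PBS and 15.9, 23, 18.3 and 22.7 CPM after TNF. Its groups were likewise separate (log2 fold change -1.35 ± 0.16, SE, edgeR adjusted p = 5.09e-06). Pdk3 was not called, at 12.7 to 15.6 CPM after PBS and 11.2 to 16 CPM after TNF (log2 fold change -0.03 ± 0.17, SE, edgeR adjusted p = 0.901, 95% interval -0.38 to 0.33). The count ratio of Pdk3 to Pdk2 was 0.285 ± 0.0283 and 0.712 ± 0.0900 (exact permutation p = 0.0286, adjusted 0.0409), and that of Pdk1 to Pdk2 was 0.990 ± 0.201 and 0.85 ± 0.24, with overlap (exact permutation p = 0.343). Pdha1, the catalytic alpha subunit of pyruvate dehydrogenase, was lower by less, at 265 to 288 CPM after PBS and 211 to 219 CPM after TNF (log2 fold change -0.39 ± 0.09, SE, edgeR adjusted p = 0.00291). Genes on the opposite strand cover 23.1% of the exon bases of Pdk2 and 13.4% of those of Pdha1, and both neighbours were also called lower. Samd14, beside Pdk2, was at 17 ± 7.55 CPM after PBS and 5.88 ± 2.09 CPM after TNF, and Map3k15, beside Pdha1, was at 24.1 ± 4.29 CPM and 10.9 ± 0.549 CPM. Their part in the changes of Pdk2 and Pdha1 was not tested.

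Of 8 other genes of the pyruvate dehydrogenase system, all tested, 5 were called higher and 2 lower, with a median of 0.40. Pdp1, a phosphatase that switches the enzyme back on, was at 10.8 ± 1.71 CPM after PBS and 61.4 ± 9.63 CPM after TNF (log2 fold change 2.51 ± 0.16, SE, edgeR adjusted p = 1.52e-08). Pdp2, the related phosphatase, was chosen after its values were seen and went the other way, at 45.1 ± 4.76 CPM after PBS and 24 ± 0.918 CPM after TNF (log2 fold change -0.91 ± 0.11, SE, edgeR adjusted p = 1.07e-05). Pdk4, the remaining kinase of the family, went the other way from Pdk1 and Pdk2. It was named after its values were seen and was at 3.53 ± 1.46 CPM after PBS and 14.7 ± 3.12 CPM after TNF (log2 fold change 2.05 ± 0.28, SE, edgeR adjusted p = 2.36e-05). Beyond pyruvate, 16 genes of the tricarboxylic acid cycle had 3 higher and 6 lower calls and a median log2 fold change of -0.16. Ogdh, a subunit of the 2-oxoglutarate dehydrogenase complex, was at 302 ± 31.2 CPM after PBS and 149 ± 18.1 CPM after TNF (log2 fold change -1.03 ± 0.12, SE, edgeR adjusted p = 5.47e-06).

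**Figure D3:**
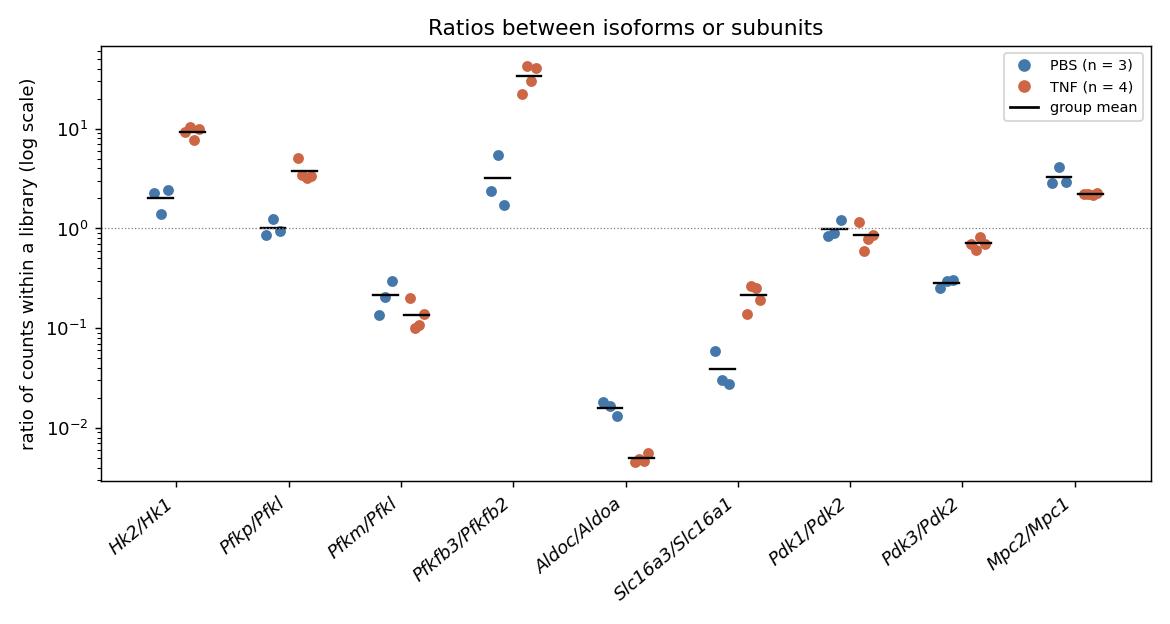
Ratio of the counts of 2 isoforms or subunits within each library, on a log axis, with a bar at the mean of 3 PBS and of 4 TNF libraries and a dotted line where counts are equal. The groups are apart in 7 of the 9 ratios shown and overlap in Pfkm to Pfkl and in Pdk1 to Pdk2.

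The pentose phosphate pathway had 5 members, of which 3 were called higher and none lower in edgeR's test, with a median of 0.36. The 2 steps that make NADPH both rose. G6pdx, the entry enzyme, oxidises glucose 6-phosphate. G6pdx was at 32.1, 34 and 26.3 CPM in PBS replicates 1 to 3 and at 43.3, 55.4, 65.6 and 56 CPM in TNF replicates 1 to 4. The groups did not overlap (log2 fold change 0.84 ± 0.14, SE, edgeR adjusted p = 2.01e-04). Pgd oxidises 6-phosphogluconate and makes the ribulose. The PBS libraries held 74.8, 81.9 and 77.4 CPM of Pgd and the TNF libraries 267, 297, 319 and 288 CPM. It was the largest change of the pathway's members, and the lowest TNF library was more than 3 times the highest PBS library (log2 fold change 1.91 ± 0.11, SE, edgeR adjusted p = 6.52e-09). Pgls, the lactonase between them, was not called, at 19.7 to 27.7 CPM after PBS and 20.7 to 25.5 CPM after TNF (log2 fold change -0.05 ± 0.14, SE, edgeR adjusted p = 0.797, 95% interval -0.36 to 0.26).

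Of the members for the non-oxidative steps, which pass carbon between pentoses and glycolysis, 1 of 2 was called. Tkt, transketolase, was at 191 ± 5.14 CPM after PBS and 245 ± 11.5 CPM after TNF with no overlap (log2 fold change 0.36 ± 0.10, SE, edgeR adjusted p = 0.00539), and its call was lost when libraries were scaled to total counts (log2 fold change 0.19). Taldo1, transaldolase, was at 142 to 173 CPM after PBS and 132 to 191 CPM after TNF and was not called (log2 fold change 0.08 ± 0.13, SE, edgeR adjusted p = 0.636, 95% interval -0.20 to 0.36). Among 8 other genes of the pathway, 5 were tested, 1 was called higher and 2 lower. The higher one was H6pd, which runs the oxidative steps inside the endoplasmic reticulum and supplies NADPH there. In replicate order, H6pd had 29.4, 25.6 and 22.6 CPM after PBS and 335, 421, 407 and 398 CPM after TNF. Its change was 15.1-fold (log2 fold change 3.92 ± 0.14, SE, edgeR adjusted p = 1.62e-10), beside 13.0-fold for Slc16a3.

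**Figure D4:**
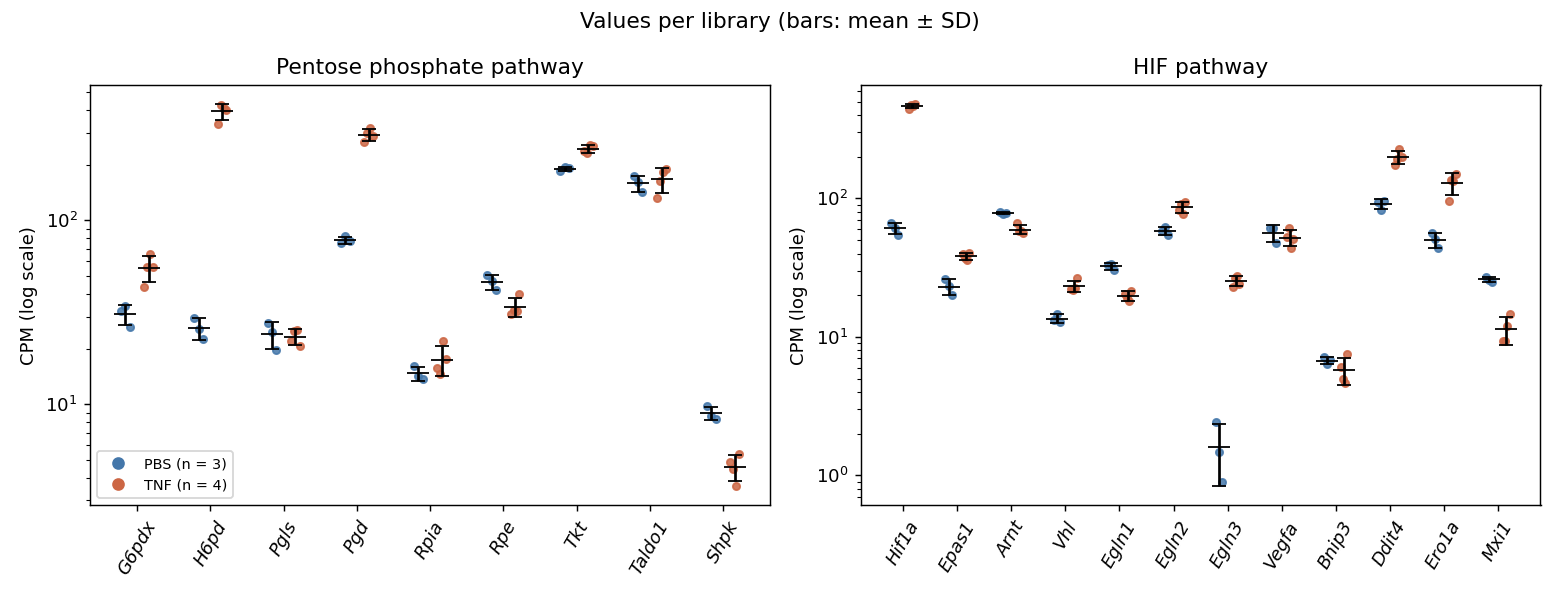
CPM in each library on log axes for genes of the pentose phosphate pathway on the left and of the HIF pathway on the right, with the mean and SD of 3 PBS and 4 TNF libraries. H6pd, Pgd and Hif1a after TNF lie far above their PBS libraries, whereas Pgls, Taldo1, Vegfa and Bnip3 overlap.

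HIF-1 is a pair of proteins, HIF-1 alpha and ARNT, and its alpha subunit is known to be controlled mainly by protein breakdown when oxygen is present. Hif1a (ENSMUSG00000021109, chromosome 12, 73948149 to 73996321) encodes that subunit. Levels of Hif1a were 66.2, 61.3 and 54.7 CPM in the PBS mice and 442, 472, 466 and 478 CPM in the TNF mice. The 4 TNF libraries lay close together and about 7.65-fold above PBS (log2 fold change 2.94 ± 0.12, SE, edgeR adjusted p = 2.93e-10), at the smallest adjusted p of any member. Arnt, for the partner, was chosen after its values were seen and was lower, at 78.6 ± 1.53 CPM after PBS and 59.6 ± 4.46 CPM after TNF (log2 fold change -0.40 ± 0.10, SE, edgeR adjusted p = 0.00287). The proteins were not measured. The known targets Vegfa and Bnip3, which serve vessel growth and mitophagy, were not called. In PBS replicates 1 to 3 Vegfa had 61.2, 61.1 and 47.6 CPM, and in TNF replicates 1 to 4 it had 52.8, 61.1, 44 and 50.9 CPM. For Bnip3 the values were 7.1, 6.36 and 6.78 CPM after PBS and 6.04, 5, 4.65 and 7.52 CPM after TNF. Both overlapped between groups, with a log2 fold change of -0.12 (95% interval -0.40 to 0.16) for Vegfa and of -0.22 (95% interval -0.71 to 0.28) for Bnip3.

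Of 22 other genes of the HIF pathway, all tested, 12 were called higher and 4 lower, with a median log2 fold change of 0.56. Egln3, an oxygen sensor that marks HIF alpha for breakdown and is itself a known HIF target, was at 1.59 ± 0.761 CPM after PBS and 25.3 ± 2.12 CPM after TNF (log2 fold change 4.00 ± 0.25, SE, edgeR adjusted p = 1.90e-08). Ddit4, an inhibitor of mTORC1, was at 91.3 ± 7.26 CPM after PBS and 198 ± 21.3 CPM after TNF (log2 fold change 1.12 ± 0.11, SE, edgeR adjusted p = 1.74e-06). Ero1a, an oxidase of the endoplasmic reticulum that forms disulphide bonds, was at 50.1 ± 6.17 CPM after PBS and 129 ± 22.6 CPM after TNF (log2 fold change 1.37 ± 0.15, SE, edgeR adjusted p = 3.30e-06). Mxi1, a repressor of the MYC network, fell and was at 26.1 ± 1.1 CPM after PBS and 11.3 ± 2.58 CPM after TNF (log2 fold change -1.20 ± 0.17, SE, edgeR adjusted p = 3.07e-05).

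The sensors of glucose were 5 further genes, of which 3 were called higher and 2 lower. Txnip, which restrains glucose uptake, was at 282 ± 22.4 CPM after PBS and 659 ± 125 CPM after TNF (log2 fold change 1.22 ± 0.15, SE, edgeR adjusted p = 1.14e-05). Its relative Arrdc4 was at 37.4 ± 5.77 CPM after PBS and 104 ± 26.1 CPM after TNF (log2 fold change 1.48 ± 0.19, SE, edgeR adjusted p = 3.04e-05). Mlxipl encodes ChREBP, the factor that normally drives both genes in response to glucose, and it moved the other way, at 33 ± 11.6 CPM after PBS and 5.87 ± 1.55 CPM after TNF (log2 fold change -2.49 ± 0.25, SE, edgeR adjusted p = 2.45e-06). Outside the 37, 79 pathway genes were listed besides those of the tricarboxylic acid cycle. Of these 79, 64 were tested, 28 were called higher and 20 lower, and the median log2 fold change was 0.22.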

How the data were processed

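RNA of sorted PCs had been read single-end on the Element AVITI. The authors deposited 1 table of raw counts per Ensembl gene identifier for the 7 libraries, and the tools named in the submitters' processing notes are FastQC, Trimmomatic 0.39, STAR 2.7.10a and DESeq2, with the builds mm10 and mm39. The build under the counts, the counting tool, its annotation and its strand setting were not given in the sources used here.

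Both the 37 genes and the lists of other pathway genes and markers were chosen with earlier results of these data known. Symbols, coordinates and canonical transcript lengths came from GENCODE M39 (GRCm39), and lengths may differ from those of the counting. In R 4.3.3, edgeR 4.0.16 fitted the counts (filterByExpr, TMM, robust quasi-likelihood, 2 groups, no covariate) over 14329 genes. The fit was tried on simulated counts in which far fewer genes changed than here, with the same spread for every gene. That trial therefore does not test the scaling or the calls in a setting like these data. All 37 members are named. Of each list of other genes, those called with a mean of at least 10 CPM and an absolute log2 fold change of at least 1 are named, at most 3 per direction by size, and genes outside this rule are marked. Some genes that meet the rule are not reported here. Intervals of 95% use the fit's degrees of freedom. Count ratios were compared as log2 ratios with 0.5 added to each count. Identity with other genes was searched in windows of 75 bases over all annotated isoforms. Alternatives were DESeq2 1.42.0, other scalings and filters, added pseudogene copies, a replicate block over replicates 1 to 3 and leaving out each library.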

Additional observations from a re-analysis of the deposited data

Results flagged for a closer look

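In 3 of 69 sets of TNF values checked, 1 library stood apart from the other 3 by more than Dixon's 95% critical value, which chance passes in about 1 of 20 sets. Aldoc was lowest in TNF replicate 1, at 1.57 CPM against 2.25, 2.30 and 2.35 CPM. Pkm was highest in TNF replicate 3, at 296 CPM against 249 to 257 CPM. The count ratio of Pfkp to Pfkl was highest in TNF replicate 1, at 5.08 against 3.20, 3.35 and 3.47, and that library had the lowest Pfkl level of the 4.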

How the results depend on the processing

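All 36 tested members were refitted under 15 alternatives. Of 540 values, 516 kept the direction and the side of the threshold, and 26 members did so under every alternative. Members called higher numbered 18 to 21 and members called lower 4 to 5. Scaling to total counts, which moved the median of all tested genes to -0.16, gave a median of 0.41 over the members, 2 lower calls among the glycolytic enzymes and 1 higher call among the genes around fructose 2,6-bisphosphate. The groups share replicate numbers, but same-numbered libraries did not deviate together (correlations -0.30, -0.03 and -0.17). Libraries with different numbers gave -0.21 to 0.35. With so few libraries this check cannot exclude a pairing or a shared batch, and the main fit used neither. The fit with the replicate block also left out TNF replicate 4, which has no PBS partner. It gave a median of 0.50, 18 members called higher, 1 higher call among the genes around fructose 2,6-bisphosphate, and 3437 higher and 3630 lower calls over all genes, beside 0.51, 20, 2, 3941 and 4152 without that library and without the block. Leaving out each library in turn gave medians of 0.51 to 0.67 and 0 to 1 lower calls among the genes around fructose 2,6-bisphosphate, the 1 being Pfkfb2 without TNF replicate 1. Calls of Pgam1, Pfkfb4 and Tkt were lost as described above. With the replicate block and without TNF replicate 4 their log2 fold changes were 0.41, 0.44 and 0.33, none past the threshold. Without that library alone they were 0.40, 0.46 and 0.33, and Pfkfb4 and Tkt were called. Members that were not called changed sign under some settings. Total counts gave -0.058 for Gpi1, -0.15 for Tpi1 and -0.091 for Taldo1, and the block gave 0.0044 for Pgls and -0.012 for Taldo1. Leaving out each library gave -0.077 to 0.079 for Tpi1, -0.12 to 0.070 for Pdk3, -0.18 to 0.070 for Pgls and -0.0043 to 0.17 for Taldo1. The cause of these shifts was not tested. Ratios without 1 library carry no test, since too few splits remain. At 3 counts, the depth sets a floor of 0.153 to 0.196 CPM per library, which covers counting error only and limits statements on Ldhb.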
